A study of Mus musculus with 8 samples.

Results

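Jun, Junb and Jund, the 3 genes of the Jun family, were examined for Smad4 peaks in activated mouse CD4+ T cells. All peaks were taken that met the gene body or the 50 kb on either side of it, 3 windows out of those of 21779 protein-coding genes. The 4 ChIP libraries placed 44 called peaks there, 42 in wild-type (WT) and 2 in Smad4 knockout (KO) libraries, and these merged into 23 regions. KO peaks were few everywhere: the whole lists held 27120 and 19792 peaks in the 2 WT libraries and 564 and 424 in the 2 KO libraries. Chromatin immunoprecipitation and sequencing (ChIP-seq) with an antibody to Smad4 had been done on CD4+ T cells of C57BL/6 mice, taken from lymph nodes and spleen. The cells were activated and held for 12 h with IL6 and a TGFbR inhibitor, which all groups shared. The libraries are named WT 1, WT 2, KO 1 and KO 2 after their labels, and both WT libraries came from females. KO cells had the genotype CD4cre;Smad4fl/fl, in which Cre under Cd4 control deletes Smad4 in T cells, with KO 1 pooled from both sexes and KO 2 male, so that sex and genotype cannot be told apart. The labels do not say whether the WT mice carried Cre, give no age, and do not state that replicates came from separate animals. The p-values therefore compare these libraries only and do not extend to animals. The peak lists hold no measure of Smad4 itself and no read depth.

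Jun proteins carry a basic leucine zipper and bind DNA as AP-1, in dimers with one another or with Fos, BATF and ATF proteins. In T cells AP-1 acts with NFAT downstream of the T cell receptor, and BATF-JUN dimers act with IRF4 at genes of helper T cell differentiation, with JunB needed for Th17 cells. c-Jun is switched on by the JNK kinases, JunB and c-Jun are products of immediate-early genes, and JunD is more steadily expressed in many tissues. Smad4 is the SMAD shared by the TGF-β and BMP pathways and can meet AP-1 on DNA.

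All 3 genes held Smad4 regions in WT cells. A region of both WT lists that met no KO peak is called WT-only here. Junb had 8 such regions, Jund had 4 and Jun had 3, and 2 more regions at Jun were called in both WT libraries and in KO 1. The remaining 6 of the 23 regions were called in WT 1 alone, and none in WT 2 alone or in a KO library alone. Of the regions called in both WT lists, 15 of 17 at the members were WT-only, with 3 of 5 at Jun. Over the whole genome 15882 of 16501 were, so most such regions met no KO peak anywhere. Having a WT-only region did not set the family apart, since 61.8% of all protein-coding genes had at least 1 in a window drawn the same way. The number did differ from gene to gene: the median over all genes was 1 region, 28.2% of genes had at least the 3 of Jun, 18.2% at least the 4 of Jund and 653 of 21779 at least the 8 of Junb.

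**Figure D1:**
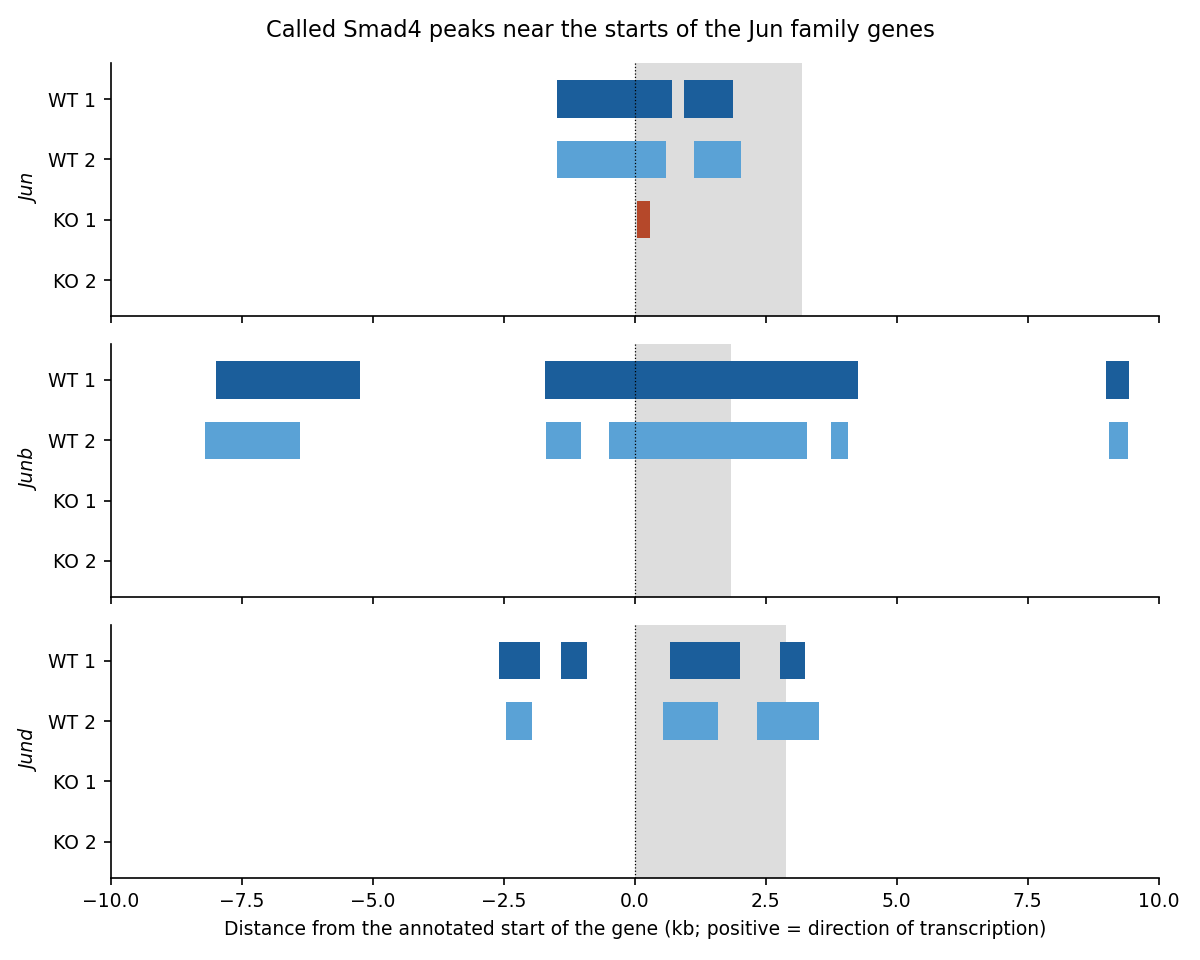
Called Smad4 peaks (coloured bars) in each of the 4 libraries around the annotated starts of Jun, Junb and Jund, by distance from the start in kb, with positive values in the direction of transcription and the gene body in grey. Peaks of both WT libraries cross the starts of Jun and Junb, whereas at Jund the nearest peaks stand on both sides of the start.

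The annotated starts of the genes were covered differently. At Jun (gene 16476, chr4:95049036-95052222, minus strand), which encodes c-Jun, a region at chr4:95051513-95053708 ran from 1486 bp upstream of the annotated start to 709 bp inside the gene. Its peak was 2196 bp wide in WT 1 and 2078 bp in WT 2. At Junb (gene 16477, chr8:84976909-84978748, minus strand) the region over the start, at chr8:84974492-84980465, reached 1717 bp upstream and 4256 bp downstream and so passed the far end of the gene and met Prdx2, a peroxiredoxin gene. At Jund (gene 16478, chr8:70697739-70700616, plus strand) no peak of any library lay over the annotated start. The nearest region on the downstream side, at chr8:70698270-70699744 inside the gene, began 531 bp past the start, and one called in WT 1 alone ended 908 bp before it.

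The promoters were taken as 250 bases before to 50 after the annotated start. They are printed because WT peaks covered those of Jun and Junb but not that of Jund. They are RefSeq sequences of build GRCm38.p6, the assembly also called mm10, which held an entry for all 3 genes. They lie at chr4:95052173-95052472 for Jun and chr8:84978699-84978998 for Junb, both on the minus strand, and at chr8:70697489-70697788 for Jund on the plus strand. Each is written 5′ to 3′ in the direction of the gene, and capitals mark the motif matches described next.
Jun: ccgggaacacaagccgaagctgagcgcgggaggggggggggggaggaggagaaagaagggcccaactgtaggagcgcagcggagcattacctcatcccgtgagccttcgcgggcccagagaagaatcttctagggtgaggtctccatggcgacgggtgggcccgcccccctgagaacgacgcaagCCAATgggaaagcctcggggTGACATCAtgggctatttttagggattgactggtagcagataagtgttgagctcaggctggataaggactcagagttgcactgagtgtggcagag
Junb: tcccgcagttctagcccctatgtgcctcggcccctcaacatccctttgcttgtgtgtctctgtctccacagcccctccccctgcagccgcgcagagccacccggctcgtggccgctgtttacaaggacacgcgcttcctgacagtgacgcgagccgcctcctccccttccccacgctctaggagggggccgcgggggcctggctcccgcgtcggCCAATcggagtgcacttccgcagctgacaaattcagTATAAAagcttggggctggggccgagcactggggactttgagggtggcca
Jund: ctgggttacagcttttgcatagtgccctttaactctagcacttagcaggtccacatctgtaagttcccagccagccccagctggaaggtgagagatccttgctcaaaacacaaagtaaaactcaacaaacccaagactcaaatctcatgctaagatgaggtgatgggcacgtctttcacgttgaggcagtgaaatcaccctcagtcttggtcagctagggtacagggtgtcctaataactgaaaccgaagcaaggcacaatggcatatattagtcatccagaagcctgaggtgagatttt

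Peaks of WT 1 and of WT 2 each covered all 300 bases of the Jun and the Junb promoter, which held for 8.93% of the 32851 promoters in the table. At Jund they covered 0 bases, with a gap of 627 bp to the nearest peak of WT 1 and of 482 bp to that of WT 2, while 18.8% of all promoters had some bases under peaks of both WT lists. KO 1 had a peak over 16 bases at the 3′ end of the Jun promoter, and 0.21% of all promoters met a KO peak. GC content was 60.0% at Jun, 65.3% at Junb and 46.7% at Jund, and the promoters had 15, 21 and 3 CpG dinucleotides. The median over all 32817 distinct promoters was 52.7% GC and 7 CpG, and over the 6162 that met peaks of both WT lists 64.0% GC and 25 CpG. RefSeq lists 2 transcripts for Jund, of which a single start was used here. The Jund promoter values hold for that start alone, and whether the other transcript begins elsewhere was not examined.

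None of 6 motifs looked for on both strands was present in these 3 windows: TGANTCA (AP-1), TGACGTCA (CRE), CAGAC (SMAD box), GGCGC (GC-rich SMAD motif), TTCNNNGAA (STAT) and CCGGAAGT (ETS). Of all distinct promoters 7.81% held TGANTCA, 1.79% TGACGTCA, 49.6% CAGAC, 36.8% GGCGC, 8.29% TTCNNNGAA and 3.89% CCGGAAGT. A further 3 motifs were added after the sequences had been read. TGACATCA, a variant of the CRE, stood at bases 206 to 213 of the Jun promoter and in 3.62% of all promoters. CCAAT stood at bases 186 to 190 of the Jun promoter and 215 to 219 of the Junb promoter, and in 37.4% of all promoters. TATAAA stood at bases 251 to 256 of the Junb promoter, from the annotated start itself, and in 13.6% of all promoters. Bases are counted from the 5′ end of the window, and none of the 9 motifs overlapped another in these sequences.

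Junb had the most Smad4 peaks of the family in the 50 kb windows. Within 10 kb the order differed by library, with 3 peaks at Junb and 4 at Jund in WT 1, and 5 and 3 in WT 2. The 50 kb window of Junb held 10 peaks in WT 1, 10 in WT 2, and 0 in KO 1 and KO 2. Both WT libraries stood above both KO libraries, as they did in peak number at 63.2% of all genes. Genes that lacked a peak in either WT list count in that share and cannot show the order. Only 5.26% of all genes had a KO peak in the window, so the order says little about a gene with WT peaks. The means were 10 ± 0 peaks in WT and 0 ± 0 in KO (SD, n = 2 each), and a 2-sided exact permutation test over libraries returned p = 0.333, which is the lower limit for 2 against 2. Length under peaks was 12908 bp in WT 1, 9570 bp in WT 2 and 0 in both KO libraries. The WT mean of 11239 ± 2360 bp (SD, n = 2) again gave an exact permutation p of 0.333, and covered length of both WT lists lay above both KO lists at 63.7% of all genes.

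**Figure D2:**
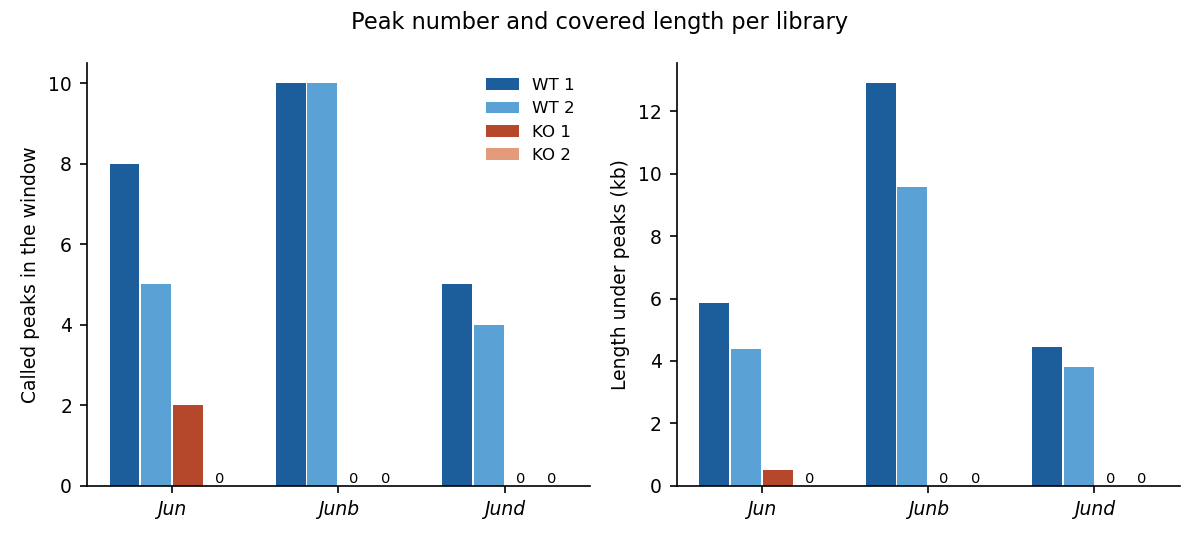
Called Smad4 peaks (left) and length under peaks in kb (right) in the gene body and 50 kb on both sides of Jun, Junb and Jund, with 1 bar for each library and 0 written where a library had no peak. WT bars exceed KO bars at each gene, Junb has the longest covered length in both WT libraries, and KO peaks appear at Jun in KO 1.

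Some of the widest peaks of the WT lists lay at Junb. The region over the gene was a single peak of 5974 bp in WT 1, the third widest of that list's 27120. WT 2 split it into 3 peaks of 320, 3766 and 680 bp, with gaps of 463 and 537 bp, and the middle one ranked 13 of 19792 by width. By total span the region ranked 4 among the 16501 regions of both WT lists. Peaks of both WT lists covered the whole body of Junb, which is 1840 bp long. This held for 6 protein-coding genes, or 0.0275% (Junb, the immediate-early gene Ier2, the histone genes H2ac21 and H4c14, 4930524J08Rik and Gm31649), chosen after the values at Junb were seen. All 6 are short, from 384 to 1840 bp, against a median of 17217 bp over all coding genes.

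A second wide region lay upstream of Junb at chr8:84983999-84986960, in the interval between Junb and Hook2, which encodes a microtubule linker protein. It began 5251 bp from the Junb start and was separated from the first by 3533 bp. Its peak measured 2750 bp in WT 1 and 1822 bp in WT 2, rank 117 and rank 334 of their lists, with centres 676 bp apart. Together the 2 regions made up 67.6% of the covered length of the Junb window in WT 1 and 68.8% in WT 2.

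The other 6 WT-only regions of the Junb window met the bodies of other coding genes, and the window contains 8 of these besides Junb. Of the 6, 4 lay over an annotated start of such a gene. They were chr8:84969324-84969753 at Prdx2, which also met the end of Rnaseh2a, chr8:84989956-84990971 at Hook2, chr8:85025112-85025672 at Get3 and chr8:85026465-85027304 at Trir. The remaining ones lay inside Mast1 (chr8:84933688-84934157) and inside Hook2 (chr8:84997926-84998202), the latter with peaks of 240 and 242 bp, the smallest width of each list. WT 1 alone had a peak over the start of Mast1 (chr8:84937203-84937642) and one of 240 bp inside Rnaseh2a (chr8:84956831-84957070). By region centre, Junb had the nearest coding start for only 1 of the 8 WT-only regions of its window. Peak positions do not say which gene a region acts on.

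**Figure D3:**
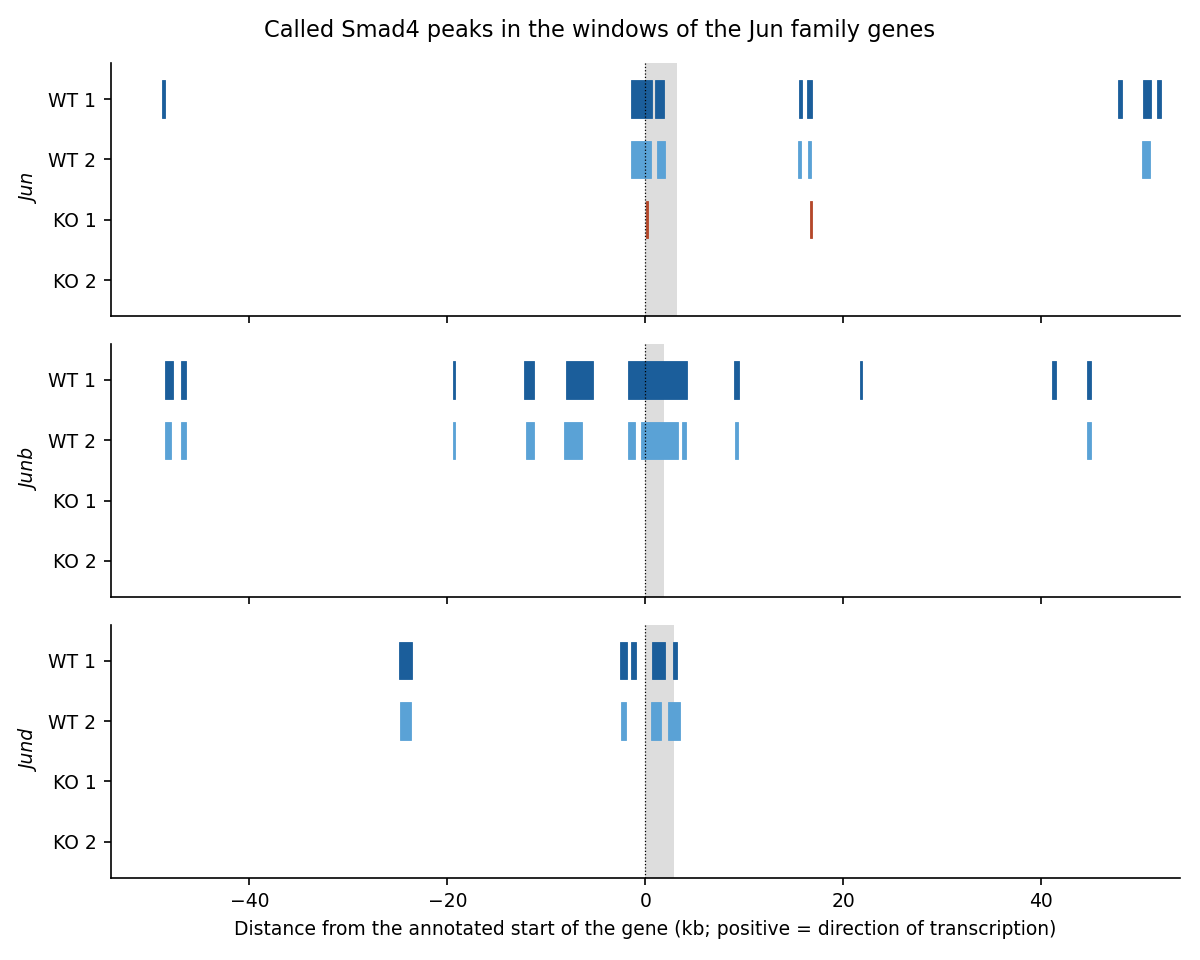
Called Smad4 peaks (coloured bars) in the whole windows of Jun, Junb and Jund in each of the 4 libraries, by distance from the annotated start in kb, with the gene body in grey. Peaks at Junb are spread over the window, those at Jund stand near the gene apart from 1 region upstream, and the 2 KO peaks at Jun lie on WT peaks.

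Jun was the member with peaks in a KO library. Its window held 8 peaks in WT 1, 5 in WT 2, 2 in KO 1 and 0 in KO 2. Both WT libraries stood above both KO libraries in peak number and in covered length, as they did at 63.2% and 63.7% of all genes. Mean peak numbers were 6.5 ± 2.12 in WT and 1 ± 1.41 in KO (SD, n = 2 each; exact permutation p = 0.333). Covered length was 5852 and 4380 bp in WT 1 and WT 2, against 508 bp in KO 1 and 0 in KO 2. The WT mean was 5116 ± 1041 bp and the KO mean 254 ± 359 bp (SD, n = 2 each), with the same exact permutation p of 0.333. Jun is the only coding gene of its window.

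Both KO peaks at Jun were 254 bp wide, the smallest width in the list of KO 1, where 48.0% of all peaks had that width. One, at chr4:95051935-95052188, lay in the first part of the gene inside the region over the start. The other, at chr4:95035378-95035631, lay downstream of the gene inside a region at chr4:95035348-95035839, whose peaks were 492 bp in WT 1 and 304 bp in WT 2. A KO peak in the window occurred at 5.26% of all coding genes, with 4.05% for KO 1 and 2.55% for KO 2. The source of the KO peaks was not tested.

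Within the Jun gene a WT-only region lay at chr4:95050203-95051276, with peaks of 926 bp in WT 1 and 888 bp in WT 2. Together with the region over the start it placed 51.3% of the gene body under peaks in WT 1 and 46.6% in WT 2, against 7.97% in KO 1. A pair of regions 12.3 and 13.2 kb beyond the 3′ end of the gene were the narrowest of those called in both WT lists there, and the one nearer to the gene, at chr4:95036358-95036772, was WT-only with peaks of 362 and 314 bp. The last WT-only region, at chr4:95001168-95001993, lay 47.0 kb from the gene and inside the lncRNA gene Gm12694, with peaks of 762 and 796 bp. WT 1 alone had 3 peaks of 308 to 434 bp in the window (chr4:95000135-95000506, chr4:95004015-95004448 and chr4:95100768-95101075), the first pair inside Gm12694 and the last inside Junos. The nearer end of Junos, an lncRNA gene, lies 95 bp upstream of the Jun start, and the region over that start also met Junos.

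Jund had 5 regions in its 50 kb window and none in KO. Its window held 5 peaks in WT 1, 4 in WT 2 and 0 in each KO library. All WT values lay above all KO values, as in peak number at 63.2% and in covered length at 63.7% of all genes. A KO peak in the window occurred at only 5.26% of all genes. The means were 4.5 ± 0.707 peaks in WT against 0 ± 0 in KO (SD, n = 2 each; exact permutation p = 0.333). Covered length was 4450 bp in WT 1 and 3796 bp in WT 2, a mean of 4123 ± 462 bp (SD, n = 2), against 0 in both KO libraries (exact permutation p = 0.333).

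The Jund regions inside the gene covered about as much of it as at Jun, 49.7% of the body in WT 1 and 55.9% in WT 2. The first, at chr8:70698270-70699744, had peaks of 1330 bp in WT 1 and 1056 bp in WT 2. The second, at chr8:70700065-70701252, crossed the 3′ end of the gene and differed most between the libraries, with 464 bp in WT 1 and 1188 bp in WT 2. Upstream, a region at chr8:70695139-70695934 with peaks of 796 and 500 bp ended 1805 bp before the start, and the peak of WT 1 alone, at chr8:70696332-70696831, stood between it and the gene. The widest peak of the window in WT 1, 1360 bp against 1052 bp in WT 2, belonged to a region at chr8:70672856-70674215 that met Lsm4, an RNA-processing gene, 23.5 kb from Jund. The window contains 5 coding genes besides Jund. Of its 4 regions of both WT lists, 2 had Jund as the nearest coding start by region centre. The region across the 3′ end of Jund was centred 2.92 kb from the Jund start and 1.37 kb from that of another coding gene.

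Between the members, covered length was longest at Junb in both WT libraries, and the WT values of Junb (9570 and 12908 bp) did not overlap those of Jun or Jund. Jun (4380 and 5852 bp) exceeded Jund (3796 and 4450 bp) within each library, but the ranges of the pair overlapped. These orders hold for the 50 kb window. At 10 kb, covered length was still longest at Junb (9154 bp in WT 1 and 6956 bp in WT 2), and Jun (3122 and 2966 bp) and Jund (3090 and 2744 bp) were close. At 100 kb, Jund (13070 and 9238 bp) exceeded Jun (8698 and 6272 bp) in both libraries, and its range overlapped that of Junb (15566 and 11778 bp). The 50 kb windows are of like size, so their covered lengths are 9.40% to 12.7% of the window at Junb, 4.24% to 5.67% at Jun and 3.69% to 4.33% at Jund. Among all coding genes, 99.5% had a shorter covered length than Junb in each WT library. The share was 94.2% and 94.1% for Jun and 89.7% and 92.1% for Jund in WT 1 and WT 2. Medians over all genes were 956 bp in WT 1 and 672 bp in WT 2. Of the 17 regions called in both WT lists, 5 met the body of a member. All 3 members had a body met by such a region, as did 35.2% of all coding genes.

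**Figure D4:**
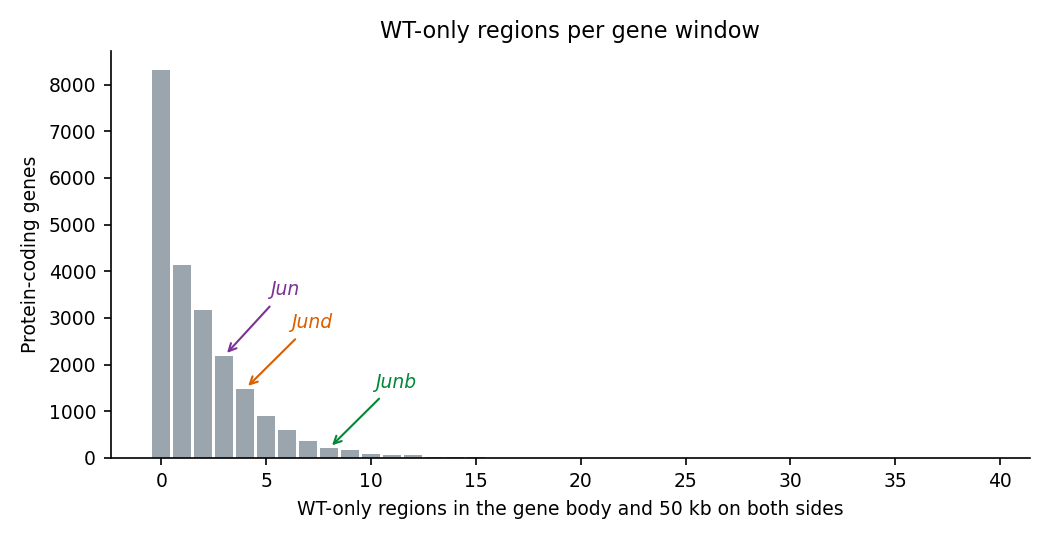
Number of WT-only regions in the gene body and 50 kb on both sides (horizontal axis) against the number of protein-coding genes with that count (bars). Arrows mark the bars that hold Jun (3 regions), Jund (4) and Junb (8); neighbouring genes share regions.

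Every region found at a member in WT 2 was also found in WT 1. All 5 peaks of WT 2 at Jun, all 10 at Junb and all 4 at Jund met a peak of WT 1. In the other direction 62.5% of the peaks of WT 1 at Jun (5 of 8), 80.0% at Junb (8 of 10) and 80.0% at Jund (4 of 5) met a peak of WT 2. Over the whole lists the shares were 85.8% of the peaks of WT 2 and 61.5% of those of WT 1, and no difference from these was tested. The 6 regions of WT 1 alone were 240 to 500 bp wide, with a median of 403 bp, and the 17 regions of both lists had a median of 840 bp, against 655 bp over all 16501 regions of both lists. Genome-wide, too, the list of WT 1 was the longer, with 27120 peaks against 19792.

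Where both WT libraries had 1 peak in a region, as in 16 of the 17, the peak centres lay 1 to 676 bp apart, with a median of 52 bp. In 13 of these the centres were within 100 bp, and in 15 the shared bases made up at least 50% of both peaks. The peak of WT 1 was the wider in 12 of 16. The exception to the 50% rule was the region at the 3′ end of Jund, where WT 2 had the wider peak.

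**Figure D5:**
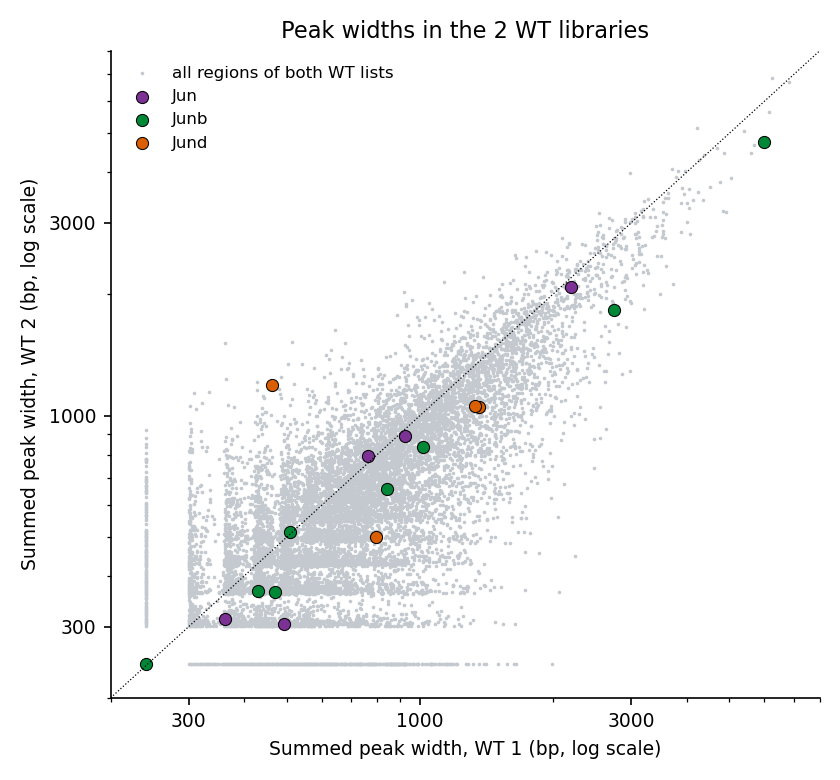
Summed peak width per region in WT 1 (horizontal) against WT 2 (vertical), both in bp on log scales, for all 16501 regions of both WT lists (grey) and for those at Jun, Junb and Jund (coloured), with the line of equal width dotted. The Junb region over the gene stands near the upper end of the cloud, and the region at the 3′ end of Jund is the coloured point farthest above the line.

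The genes most like each member over the 4 libraries were ranked by the Euclidean distance of log2(covered bp + 100) in their windows, leaving out genes whose window meets that of the member. For Junb they were Tgfbr2, which encodes a TGF-β receptor (13164, 9394, 0 and 0 bp in WT 1 and WT 2 and KO 1 and KO 2; distance 0.0386), Arhgef10 (distance 0.0396) and Ifnar1, a type I interferon receptor gene (distance 0.0711). For Jund they were Pip5k1c (4444 and 3822 bp in WT 1 and WT 2; distance 0.00978), Azin1 (0.0287) and Shoc2 (0.0342), all with 0 bp in KO. For Jun they were Rab42 (6235 and 4367 bp in WT 1 and WT 2, 552 and 0 bp in KO 1 and KO 2; distance 0.135), Gmeb1 (0.151) and Trnau1ap (0.176). Those 3 genes lie within 109.7 kb of one another, so their windows share peaks.

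Most listed genes of the wider AP-1 network also had a WT-only region in their window, though not always in the gene itself. All 11 genes of AP-1 partners had a WT-only region in a window drawn the same way, with a median of 4 regions and a range of 1 to 12. Windows include the gene body, so longer genes had longer windows, and the counts were not adjusted for this. The JNK cascade had one at 4 of 5 genes, the exception being Mapk10, and the ubiquitin ligase genes Itch and Fbxw7 both did. Of these 18 genes together, 17 had a WT-only region, against 61.8% of all coding genes, and 4 had a KO peak in the window, against 5.26%. Their median was 3 regions, against 1 over all coding genes. The widest WT-only regions of the list lay near Fosb (chr7:19270488-19272763), at Fosl2 (chr5:32134453-32136674), at Fos (chr12:85473194-85475009) and near Fosl1 (chr19:5487551-5489316), all genes of Fos proteins that pair with Jun proteins. Their spans of 1766 to 2276 bp were under that of the Junb region and lay around the 2196 bp of the Jun region over its start. That Jun region also held a KO 1 peak and so was not WT-only, and the widest WT-only region at Jun spanned 1074 bp. The windows of Batf and Jdp2 share 2 WT-only regions.

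Marker genes of the labelled cell type were looked at in windows drawn the same way, with the limit that peaks record binding and not expression. All 7 T cell genes had a WT-only region (median 8), as did 4 of 5 B cell genes and 3 of 5 myeloid genes (median 1 each), beside 61.8% and a median of 1 region over all coding genes. Cd3d, Cd3e and Cd3g lie together and share their widest WT-only region, so they are not separate observations. Lyz2 held no peak in any library. The part of other cells in the regions at Jun genes was not tested.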

How the data were processed

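Smad4 was profiled in 4 ChIP libraries, 2 WT and 2 KO; the 4 input samples were not analysed here. The authors deposited 1 peak list per library, with chromosome, start and end, and with no score, height or count. Trim Galore, Bowtie, HOMER 4.8.3 and mm10 are named, without roles, per the submitters' processing notes. For peak thresholds, the use of input and read depth: not given in the sources used here. The lists held 27120 peaks in WT 1, 19792 in WT 2, 564 in KO 1 and 424 in KO 2.

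Positions are 1-based. Gene bounds came from a RefSeq table on GRCm38.p6 (21779 of its 21900 protein-coding genes; except on Y, genes starting below 3 Mb were dropped, where scaffold positions may stand). Peaks that shared at least 1 bp were merged over the 4 lists, and a region belonged to a gene when it met the body or 50 kb on both sides. WT and KO were compared by a 2-sided exact permutation test over libraries. The interval computations were tested on simulated data. Members, lists and tests were chosen with earlier results of these data known. The naming rule took the members with every region, coding genes that a region met, the 3 most alike genes per member and up to 4 AP-1 genes. Alternatives were windows of 10 and 100 kb, peaks sharing 50%, centres within 100 bp, no KO peak within 1 kb, no peaks of the smallest width, leaving out each library, and pairing by number. Python 3.11.15, numpy 2.4.6, pandas 2.3.3, SciPy 1.17.1 and matplotlib 3.10.9 were used.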

Additional observations from a re-analysis of the deposited data

How the results depend on the processing

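The WT minus KO differences in peak number and covered length kept their direction at Jun, Junb and Jund in all 48 recomputations. At Junb and Jund the direction could not turn, since both KO libraries had 0 peaks in the windows of 10, 50 and 100 kb. None of the differences could pass a threshold of 0.05, since the exact permutation p was at least 0.333. Their size followed the window. At 10 kb they were 1.5, 4 and 3.5 peaks and 2917, 8055 and 2917 bp for Jun, Junb and Jund, and at 100 kb 10, 16 and 13 peaks and 7231, 13672 and 11154 bp. Jun lay above Jund in both measures at 50 kb and below it at 100 kb. Pairing libraries by replicate number (the replicate block) cannot change a mean difference. The differences thus stayed at 5.5, 10 and 4.5 peaks and 4862, 11239 and 4123 bp for Jun, Junb and Jund. The exact permutation p over pairs was 0.5, the smallest that 2 pairs allow. The labels do not state that numbers pair libraries, and across 21779 genes the deviations of same-numbered libraries had a correlation of 0.00983. Only 5.26% of genes had a KO peak in the window, so KO 1 and KO 2 were equal at most genes. The correlation therefore cannot tell whether numbers pair libraries.

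Of the recomputed numbers of WT-only regions, 22 of 30 stayed within 1.5 times the reported value. A window of 10 kb gave 1 at Jun and 3 at Junb, and one of 100 kb gave 5 at Jun and 9 at Jund, by the size of the window. At Jun, asking for no KO peak within 1 kb gave 1, since 2 of its 3 WT-only regions stand beside a region with a KO peak, and leaving out peaks of the smallest width gave 5, since both KO peaks had that width. Leaving out 1 library gave 3 to 6 at Jun, 8 to 10 at Junb and 4 to 5 at Jund. Without KO 1 the count at Jun was 5 and without WT 2 it was 6, where a single WT list sufficed. Leaving out 1 library moved the differences in peak number between 4 and 7 at Jun, 10 and 10 at Junb and 4 and 5 at Jund, and those in covered length between 4126 and 5598, 9570 and 12908, and 3796 and 4450 bp. Without scores or depth, a missing peak does not show absent binding.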
